A study of Rattus norvegicus with 48 samples.

Results

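Cerebral endothelial cells (CECs) of rats fasted for 3 days (F3 rats) were compared with those of rats fasted for 1 day (F1 rats), to ask what separates the late from the early response to food withdrawal. The comparison takes 6 of the 12 samples of the study, 3 F1 samples and 3 F3 samples chosen by their labelled fast, and 24 of its 48 count files. The other samples came from rats fed ad libitum (AL rats) and from rats fasted for 2 days (F2 rats). They are no part of the contrast, but enter the test through the choice of features, the scaling and the shared estimate of the spread. Their values are otherwise given for reference. All rats were male Wistar-Han rats with free access to water. The cells were taken from cortex by magnetic removal of CD11b-positive microglia and then by magnetic selection for CD31, an endothelial surface protein. Each sample is a pool of cells from several rats of 1 independent experiment and is named here by its group and by the letter i, j or k of its label. Each was deposited as 4 technical replicates, which were summed.

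CECs line the vessels of the brain and form the blood-brain barrier, in which tight junctions close the path between cells, so that nutrients must cross through solute carriers (SLC) and many drugs are pushed back by ATP-binding cassette (ABC) transporters. During a fast the liver turns fatty acids into ketone bodies, which reach the brain through the monocarboxylate transporter Slc16a1 (MCT1), while glucose enters through Slc2a1 (GLUT1). The peroxisome proliferator-activated receptors (PPARs) are fatty acid sensors that switch on genes of fatty acid oxidation and the lipase inhibitor Angptl4.

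Assigned reads numbered 23237702 to 23808952 per F1 sample and 24027073 to 25960874 per F3 sample, and the test covered the 13050 features that no sample of the study lacked. Symbols were paired with 2043 of these features, 1509 of them with the symbol of a gene rather than of a clone, nearly all early in the alphabet or transporters, so that the 11007 features without a symbol enter the counts and not the named genes. For 1 technical replicate (d) of sample k of F1, the labels disagree on the fast. It was kept in F1, where its counts differed from replicates a to c by a chi-square of 1.002 per degree of freedom, against 10.01 to 26.75 from the F2 samples. Different samples of 1 group differed by 9.75 to 16.5. F2 sample j stands apart from the other libraries of the study. Its distance to them reaches 0.551 on the scale described next, and the median standard error (SE) of the comparison was 0.127 with it and 0.107 without it.

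The F3 samples were about as far from the F1 samples as samples of 1 group were from each other. The distance between samples, the root mean square difference in log2 CPM (counts scaled to equal library sizes) over the features tested, was 0.366 to 0.375 within F1, 0.353 to 0.399 within F3 and 0.351 to 0.412 between F1 and F3. The mean was 0.380 between the groups and 0.372 within them, a difference of 0.00856 (exact permutation test, one-sided, p = 0.2, where 0.1 is the smallest p that 10 splits allow). By comparison, distances from the AL samples were 0.417 to 0.514 for F1 and 0.441 to 0.538 for F3. The first principal component of the 500 most variable features among the 6 samples held 27.8% of their variance. F1 sample i had a score of 0.598, above that of F3 sample j at −2.98, so that the groups overlapped on it.

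**Figure D1:**
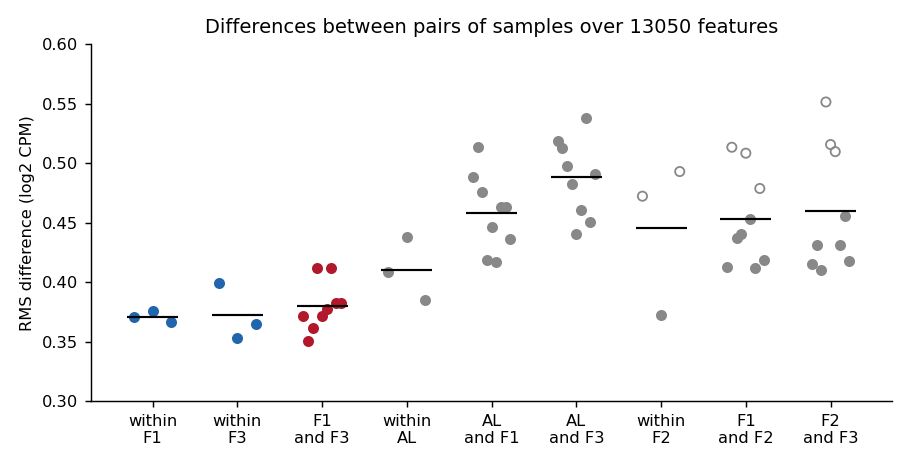
Each point is the root mean square difference in log2 CPM between a pair of samples over 13050 features, and the bar is the mean of each kind of pair. Open points are pairs with F2 sample j. The pairs of an F1 and an F3 sample (red, 0.351 to 0.412) lie in the range of pairs within F1 or F3 (blue, 0.353 to 0.399) or just beside it, and below every pair of an AL sample with an F1 or F3 sample.

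No gene passed the threshold between F3 and F1. In edgeR's quasi-likelihood test 0 of 13050 features had a Benjamini-Hochberg adjusted p of at most 0.05 (0.0%), and the lowest adjusted p was 0.0828. At an unadjusted p under 0.05 there were 579 features (4.44%), 225 with the higher mean in F3 (1.72%) and 354 with the lower (2.71%). The Wald test of DESeq2 on the same features called 24, 3 higher and 21 lower in F3, and had 522 at an unadjusted p under 0.05. A fit of only the 6 samples called 9, 1 higher and 8 lower, of which 7 were among the 24 of DESeq2. Without F2 sample j, 6 features were called and 996 had an unadjusted p under 0.05, and without F1 sample k the latter number was 357. The same model called 856 features for F1 (6.56%) and 1572 for F3 (12%), each against the same AL samples.

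The intervals show how large a difference could have been missed. Log2 fold changes (LFC) are F3 minus F1 throughout, and the median over all features tested was −0.0017, with a median SE of 0.127. The 95% interval lay within an LFC of −0.5 to 0.5 for 8296 features (63.6%), and for 8100 of the 9459 features with a mean of at least 100 normalized counts (85.6%). It lay within −1 to 1, less than a doubling or halving, for 98.4% of these 9459. Among the 3591 features with lower means only 5.46% had an interval within −0.5 to 0.5, so that differences of moderate size in weakly expressed genes were not detectable at this depth and number of samples. An interval wholly beyond 0.5 in either direction was seen for 11 features, none of which passed the test. The samples did not overlap for 1695 features (13.0%), with all F3 samples above all F1 samples for 764 (5.85%) and below for 931 (7.13%). These samples are bulk RNA, in which fewer cells of a type and less RNA per cell cannot be told apart.

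**Figure D2:**
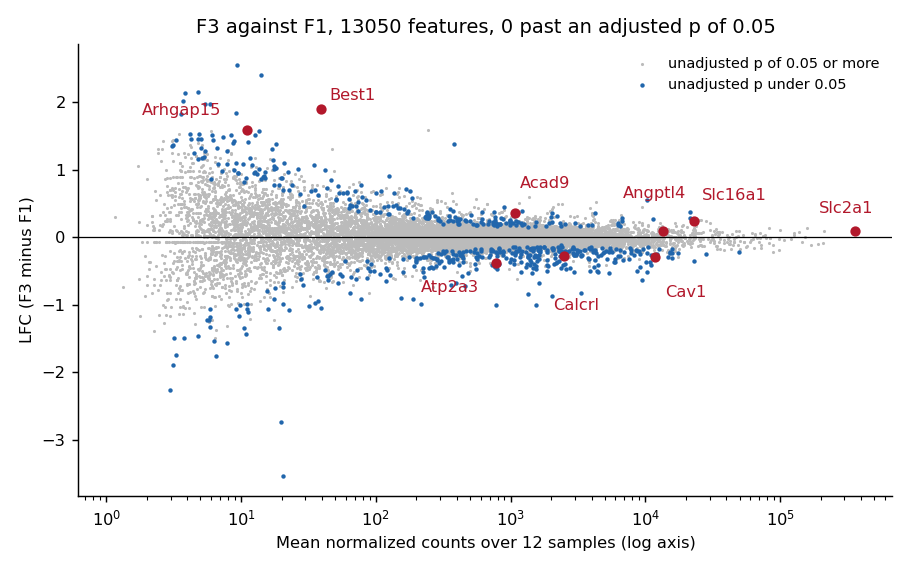
LFC of F3 minus F1 against the mean normalized count over 12 samples (log axis) for 13050 features, with an unadjusted p under 0.05 in blue and selected genes in red. No feature passed an adjusted p of 0.05, and the scatter narrows from about 1 to 2 LFC at means near 10 to under 0.5 for most features above 1000, with Best1 (LFC 1.89) well above genes of similar abundance.

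The genes of fuel supply that were called against AL on day 1 did not pass the test between day 1 and day 3. In the sentences that follow, values are normalized counts of samples i, j and k in that order, SD is over n = 3 samples, intervals are 95% intervals of the LFC, and the adjusted p in edgeR was 0.996 where no other is given. Slc2a1, the glucose carrier, had 373387, 392818 and 383328 in F1 and 401902, 416026 and 402805 in F3. All F3 samples lay above all F1 samples, yet the means of 383178 ± 9716 and 406911 ± 7907 gave an LFC of 0.09 with an interval of −0.10 to 0.28. Against AL rats the LFC of Slc2a1 had been 0.43 in F1 (adjusted p = 0.011 in edgeR) and was 0.52 in F3 (adjusted p = 0.0019). Slc16a1, the ketone body carrier, had 19507, 17968 and 24227 in F1 and 22422, 24493 and 25556 in F3. F1 sample k lay among the F3 samples, and the LFC was 0.23 (SE 0.135, interval −0.06 to 0.52), a ratio between 0.960 and 1.44. Its LFC against AL was 0.56 in F1 and 0.79 in F3, both past the threshold, and the F2 samples lay above both groups (31256, 36341 and 32858). Angptl4, which restrains lipoprotein lipase, had 14419, 16578 and 14328 in F1 and 16587, 16990 and 14854 in F3. Its groups overlapped, with an LFC of 0.10 (interval −0.12 to 0.31).

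No nutrient or cofactor carrier passed the test either. Slc38a3, a glutamine carrier, had 54058, 52335 and 47090 in F1 and 55142, 49801 and 45177 in F3, which are nearly superimposed (LFC −0.03, interval −0.23 to 0.17). Slc19a3, which carries thiamine, had 7735, 8214 and 7320 in F1 and 10292, 9699 and 6811 in F3. The F3 samples lay on both sides of the F1 samples, and the LFC of 0.20 had an interval of −0.26 to 0.66. Slc52a2, a riboflavin carrier, had means of 3041 ± 85.7 in F1 and 3324 ± 269 in F3 (LFC 0.13, interval −0.04 to 0.30). Slc1a1, a glutamate carrier, varied most within groups, with 11233, 6409 and 8571 in F1 and 8723, 6232 and 7974 in F3. Its interval, −0.86 to 0.48, leaves room for a sizeable difference either way. The organic anion and thyroid hormone carriers Slco1c1 (LFC −0.02, interval −0.20 to 0.16) and Slco1a4 (LFC −0.07, interval −0.26 to 0.13) had narrow intervals around 0.

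The taurine carrier Slc6a6 was among the few transporters whose interval did not reach 0 before adjustment. It had 8942, 9772 and 10529 in F1 and 6083, 8137 and 8456 in F3, so that every F3 sample lay below every F1 sample. The LFC was −0.37 (SE 0.166, interval −0.73 to −0.01). Against AL rats its LFC was −0.52 in F1 (adjusted p = 0.088 in edgeR), not past the threshold, and −0.89 in F3 (adjusted p = 0.0046), but the direct comparison of both days did not pass.

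Of the 53 transporters that the study listed as differential against AL rats, a list chosen on these samples, 0 passed the test between F3 and F1. An unadjusted p under 0.05 was seen for 4, all lower in F3, beside 2.71% of all features. Their median LFC was −0.02, beside −0.0017 over all features, and 45 had an LFC within 0.25 of 0. The interval lay within −0.5 to 0.5 for 37 of 53. F3 lay wholly above F1 for 4 and wholly below for 6, beside 5.85% and 7.13% of all features. The 4 lowest p-values belonged to Abca3, Slc35g2, Slc29a3 and Slc6a6. Slc35g2, a member of the nucleotide sugar carrier family, had 58.9, 41.0 and 41.6 in F1 and 28.8, 28.8 and 33.8 in F3 (LFC −0.63, interval −1.11 to −0.15). Slc29a3, an intracellular nucleoside carrier, had 203, 216 and 258 in F1 and 180, 192 and 180 in F3 (LFC −0.30, interval −0.55 to −0.04). Both pairs of groups were separate at low or moderate counts. In the same model 21 of the 53 were called against AL in F1 and 40 in F3. None of the 23 called in F3 alone passed the direct test, which follows from 0 of all 13050 features passing it.

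**Figure D3:**
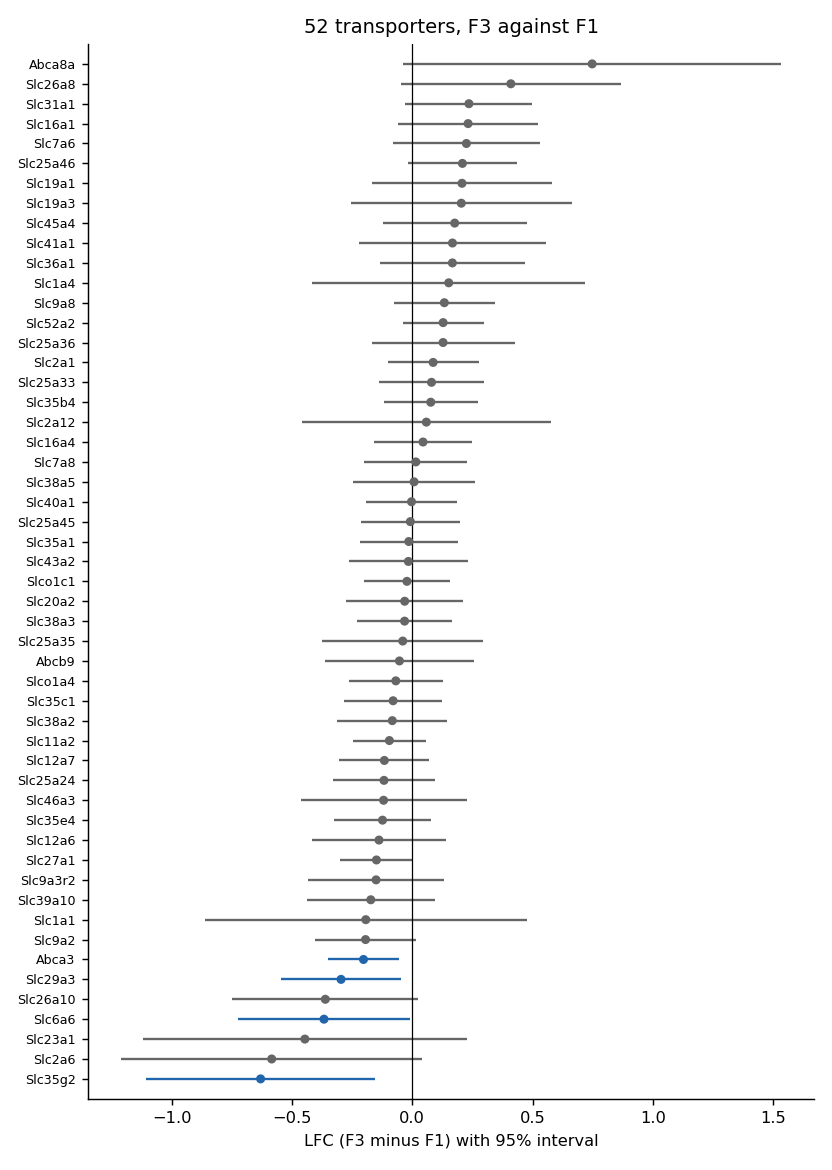
LFC of F3 minus F1 with its 95% interval for 52 of the 53 transporters that the study listed as differential, in order of LFC, blue where the unadjusted p was under 0.05. The 4 blue transporters, Abca3, Slc29a3, Slc6a6 and Slc35g2, lie between −0.20 and −0.63.

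No drug efflux transporter passed the test. Abcb1a (P-glycoprotein) had 76467, 72826 and 73424 in F1 and 76770, 76566 and 71625 in F3. The samples of both groups interleaved, with an LFC of 0.01 and an interval of −0.17 to 0.20, a ratio between 0.887 and 1.15. Abcg2 (breast cancer resistance protein) had means of 24770 ± 1458 and 25738 ± 3324 (LFC 0.06, interval −0.21 to 0.32). Abcc4, which exports organic anions and cyclic nucleotides, had 16243, 16670 and 14762 in F1 and 14628, 13067 and 13082 in F3. Its F3 samples all lay below its F1 samples, and the interval of −0.49 to 0.04 included 0. Abca3, a lipid transporter, had 3336, 3321 and 3510 in F1 and 2955, 3030 and 2849 in F3. The groups were separate by a small step (LFC −0.20, SE 0.0685, interval −0.35 to −0.06). Abca3 was the 1 of 38 ABC transporters measured with an unadjusted p under 0.05, beside 2.71% of all features lower in F3. The lysosomal peptide transporter Abcb9 overlapped between the groups (LFC −0.05, interval −0.36 to 0.26). Abca8a, at 15.2 to 17.3 in F1 and 17.9 to 33.4 in F3, was too weakly expressed for a narrow interval (−0.04 to 1.53). The median LFC of the 38 was −0.02, and 0 passed the test.

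No enzyme of fatty acid oxidation passed the test, and the 2 of 19 with an unadjusted p under 0.05 were both higher in F3, beside 1.72% of all features. Acad9, an acyl-CoA dehydrogenase that also serves complex I assembly, had 1098, 1040 and 1059 in F1 and 1407, 1334 and 1331 in F3. The gap between the groups was several times the spread within them, and the LFC was 0.35 (SE 0.119, interval 0.09 to 0.60). Its LFC against AL was 0.46 in F1 and 0.81 in F3, both past the threshold. Acadl, the long-chain acyl-CoA dehydrogenase, had 1145, 1123 and 1004 in F1 and 1308, 1266 and 1249 in F3. These groups were separate too, by a smaller step (LFC 0.22, SE 0.0812, interval 0.05 to 0.40). Acads, its short-chain counterpart, had 592, 738 and 675 in F1 and 655, 568 and 651 in F3, with an LFC of −0.10 and an interval of −0.34 to 0.15. Acad11 (LFC −0.13) and the thiolase Acaa2 (LFC 0.14) also had intervals that included 0. Over the 19 enzymes measured, of 37 listed, the median LFC was −0.03, with 8 above 0 and 11 below, and 0 passed the test.

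Of the 11 PPAR target genes measured, of 30 listed, 1 (Acadl) had an unadjusted p under 0.05. The share higher in F3 at that p was 1.72% over all features. The median LFC of the 11 was 0.01, and the interval lay within −0.5 to 0.5 for all 11. Slc27a1, a fatty acid transport protein of this list, had 2245, 2173 and 2176 in F1 and 2019, 1969 and 1959 in F3. Its groups were tight and separate, with an LFC of −0.15 and an interval of −0.30 to 0.00. The genes of the receptors themselves and of Pdk4 and Cpt1a were not among those with an identifier here.

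Genes of ketone body use had a median LFC of −0.13 over 6 measured, of 8 listed. Of these 2 had an unadjusted p under 0.05, both lower in F3, beside 2.71% of all features. Bdh1, which interconverts the ketone bodies, had 342, 397 and 282 in F1 and 292, 258 and 257 in F3, overlapping through F1 sample k (LFC −0.34, interval −0.67 to −0.01). Acat2, the cytosolic acetoacetyl-CoA thiolase, which also stands at the start of sterol synthesis, had 323, 261 and 290 in F1 and 178, 248 and 271 in F3 (LFC −0.33, interval −0.65 to −0.01). It overlapped as well. Aacs, which activates acetoacetate for lipid synthesis, had an LFC of −0.20 with an interval of −0.44 to 0.04, and Acly, which makes cytosolic acetyl-CoA, one of −0.11 with an interval of −0.28 to 0.05. The 6 measured genes of sterol and fatty acid synthesis, of which Acat2 is 1, had a median LFC of −0.12.

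Both measured aldolases, enzymes of glycolysis, had lower values in F3. Aldoa had 14230, 17052 and 16738 in F1 and 13114, 13790 and 13948 in F3 (LFC −0.23, interval −0.46 to −0.01). Aldoc, which is typical of astrocytes, had 1702, 1950 and 2277 in F1 and 1566, 1545 and 1588 in F3 (LFC −0.34, interval −0.61 to −0.06). In both genes all F3 samples lay below all F1 samples, closely so for Aldoa, where F1 sample i and F3 sample k were 14230 and 13948. These were the 2 of 10 genes of hypoxia and glycolysis measured, of 19 listed, with an unadjusted p under 0.05. The share lower in F3 at that p was 2.71% over all features. The median LFC of the 10 was −0.09. Among 14 genes of insulin, Akt and FoxO signalling, only Akt1s1 (PRAS40), a regulator of the mTOR complex, had an unadjusted p under 0.05, with means of 834 ± 94.2 in F1 and 718 ± 54.1 in F3 (LFC −0.22, interval −0.41 to −0.02). Akt1 had an LFC of −0.10 with an interval of −0.25 to 0.06.

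**Figure D4:**
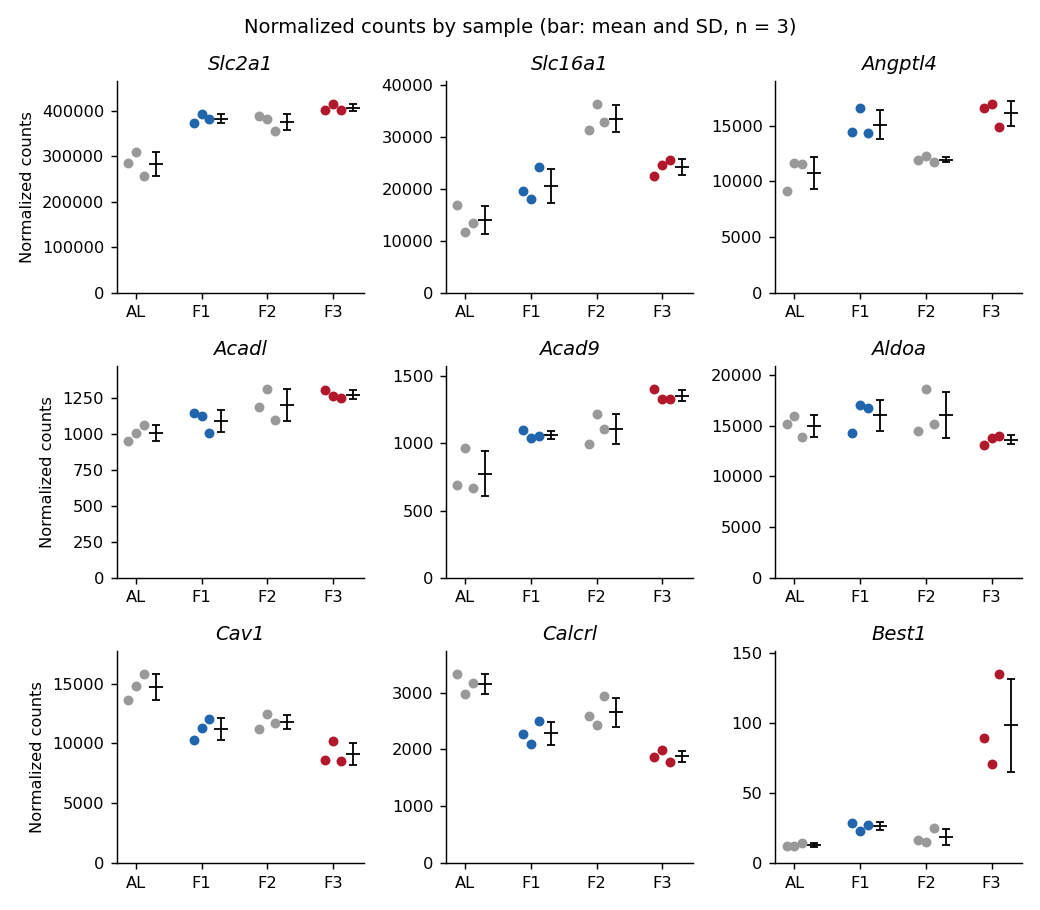
Normalized counts of 9 genes in each sample of the 4 groups, with the mean and SD of 3 samples beside the points (F1 blue, F3 red, AL and F2 grey). Slc2a1, Slc16a1 and Angptl4 lie above AL in F1 and F3 alike, Acad9 and Acadl have their highest mean in F3, Cav1 and Calcrl their lowest, and Best1 has 70.6 to 135 in F3 against 23.1 to 28.5 in F1.

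Neither of the measured caveolins passed the test. Cav1, the coat protein of caveolae, had 10270, 11264 and 12056 in F1 and 8591, 10217 and 8555 in F3. The highest F3 sample was just under the lowest F1 sample, and the LFC was −0.30 (SE 0.0936, interval −0.50 to −0.09, adjusted p = 0.984 in edgeR). Its partner Cav2 had 2693, 2909 and 3550 in F1 and 2550, 2629 and 2423 in F3 (LFC −0.27, SE 0.098, interval −0.48 to −0.06). These were the 2 measured genes of 8 listed for caveolae and transcytosis. All F3 samples of both lay below F1, as they did for 7.13% of all features. Against AL rats the LFC of Cav1 was −0.40 in F1 and −0.69 in F3, both past the threshold. Calcrl, the receptor of adrenomedullin and calcitonin gene-related peptide, had 2267, 2088 and 2492 in F1 and 1858, 1987 and 1779 in F3. Its groups were separate, with an LFC of −0.28 (SE 0.0879, interval −0.47 to −0.10, adjusted p = 0.955 in edgeR). Apln, a peptide released by sprouting endothelium, had 152, 265 and 231 in F1 and 116, 136 and 180 in F3, which overlapped (LFC −0.59, interval −1.12 to −0.05). Its receptor Aplnr had an LFC of −0.21 with an interval of −0.48 to 0.06. Calcrl and Apln were the 2 of 16 vasoactive and angiogenic ligands and receptors with an unadjusted p under 0.05, beside 2.71% of all features lower in F3. The median LFC of the 16 was −0.03.

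Arhgef15, a guanine nucleotide exchange factor of vessels, had the tightest replicates of this group of genes. It had 4413, 4486 and 4511 in F1 and 3862, 3784 and 3864 in F3. The gap was more than 10 times the SD of 50.8 and 45.3 within the groups, while the shared model gave an SE of 0.0702 for an LFC of −0.22 (interval −0.37 to −0.07, adjusted p = 0.984 in edgeR). Arhgef15 was the 1 of 12 measured endothelial markers with an unadjusted p under 0.05, beside 2.71% of all features lower in F3. Pecam1 (CD31), the protein used for the sort, had 36433, 38792 and 35876 in F1 and 33981, 33083 and 34609 in F3, separate by a small step, with an interval of −0.29 to 0.03. Acvrl1 (ALK1), an endothelial receptor of bone morphogenetic proteins, had an LFC of −0.13 (interval −0.28 to 0.02), and the transcription factor Bcl6b one of −0.15 (interval −0.40 to 0.11). The 12 had a median LFC of −0.05, with 5 above 0 and 7 below, and an interval within −0.5 to 0.5 for all 12.

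The lowest p of any listed gene belonged to 1 ion pump. Atp2a3 (SERCA3), which returns calcium to the endoplasmic reticulum, had 897, 759 and 882 in F1 and 636, 700 and 610 in F3. F3 lay below F1 throughout, with an LFC of −0.38 (SE 0.0893, interval −0.58 to −0.19, adjusted p = 0.475 in edgeR). It was the 1 of 13 sodium, calcium and copper pumps with an unadjusted p under 0.05, beside 2.71% of all features lower in F3. The median LFC of the 13 was 0.008, with 8 above 0 and 5 below. Of 18 subunits of the vacuolar proton pump, Atp6v0a1 alone had an unadjusted p under 0.05 (means 8157 ± 432 and 7039 ± 592, LFC −0.21, interval −0.39 to −0.03). The 16 subunits of the mitochondrial ATP synthase had LFC between −0.16 and 0.03, all 16 intervals lay within −0.5 to 0.5, and none had an unadjusted p under 0.05.

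No measured ADAM or ADAMTS gene passed the test. Adamtsl2, a secreted matrix protein related to the ADAMTS proteases, had 1506, 1301 and 1144 in F1 and 981, 1062 and 946 in F3 (LFC −0.40, SE 0.113, interval −0.65 to −0.16, adjusted p = 0.717 in edgeR). Adam17, a sheddase of receptors and cytokines, had 5491, 4974 and 5244 in F1 and 4633, 4736 and 4615 in F3 (LFC −0.17, interval −0.32 to −0.01). Both genes were separate between the groups. Of 26 ADAM and ADAMTS genes 3 had an unadjusted p under 0.05, all lower in F3, beside 2.71% of all features, and the median LFC was −0.06. In the amyloid precursor family and its secretases, 3 of 14 did, also all lower and read beside the same share: Adam17, the precursor-like protein Aplp1 (2595 ± 155 and 2246 ± 91, LFC −0.21, interval −0.39 to −0.03) and the protease Bace2 (201 ± 14.1 and 155 ± 20.3, LFC −0.37, interval −0.71 to −0.02). The median LFC of these 14 was −0.08, with 13 of 14 below 0, beside 6591 of 13050 below 0 over all features. Among 9 annexins, which bind membranes in the presence of calcium, Anxa6 had an unadjusted p under 0.05 (2567 ± 94.6 and 2202 ± 129, LFC −0.22, interval −0.42 to −0.02) and Anxa1 had an LFC of −0.21 with an interval of −0.43 to 0.01.

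Chaperones and stress genes did not pass the test either. Of the 7 measured heat shock chaperones and co-chaperones, 0 had an unadjusted p under 0.05, and their median LFC of −0.14 was the lowest of any list with at least 5 measured members. Ahsa1, an activator of Hsp90, had 1590, 2045 and 1740 in F1 and 1753, 1522 and 1402 in F3, which overlapped (LFC −0.20, interval −0.45 to 0.05). Cacybp, an adaptor of a ubiquitin ligase, had an LFC against AL of −0.85 in F1 and −1.03 in F3, both past the threshold, and its F3 to F1 interval was −0.45 to 0.10. Calr, a calcium-binding chaperone of the endoplasmic reticulum, had 9080, 10004 and 9412 in F1 and 8227, 8102 and 8777 in F3 (LFC −0.18, interval −0.34 to −0.02). The share lower in F3 at an unadjusted p under 0.05 was 2.71% over all features. Calr was the only 1 of 6 genes of the unfolded protein response with such a p. None of the 9 genes of the amino acid stress response, 22 autophagy genes, 19 genes of the BCL2 family and caspases, 23 cell cycle genes, 25 clathrin adaptor subunits or 16 genes of bone morphogenetic protein and activin signalling had one. The clock genes Arntl (LFC −0.11, interval −0.30 to 0.07) and Bhlhe40 (LFC 0.06, interval −0.13 to 0.25) did not pass the test.

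The other lists described here held 0 called genes as well. Of 44 genes of Arf and Arl GTPases and their regulators, 1 had a higher and 1 a lower mean in F3 at an unadjusted p under 0.05. Of 22 genes of inflammation, complement and interferon response, 1 was higher and 1 lower, and of 21 A-kinase anchors and adenylyl cyclases 1 was higher. Among 20 Polycomb and BAF chromatin factors 1 was lower, as was 1 of 7 genes of ribosome biogenesis. Over all features tested, 1.72% were higher and 2.71% lower in F3 at that p. No member had an unadjusted p under 0.05 among 28 actin regulators, 16 adhesion receptors, 10 genes of branched-chain amino acid breakdown, 8 of Wnt signalling, 4 immediate early genes and 3 genes of the glucocorticoid response.

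**Figure D5:**
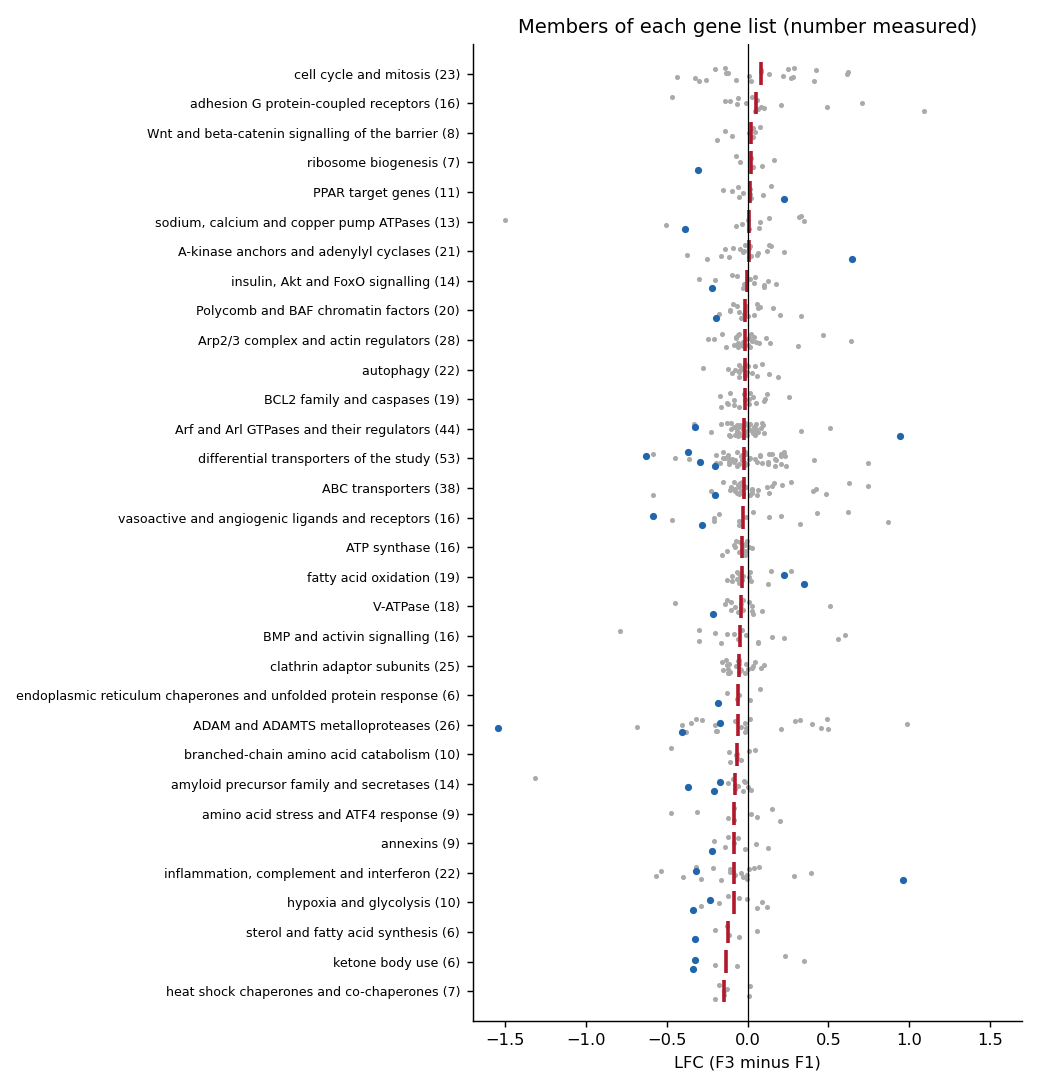
LFC of F3 minus F1 for the measured members of the gene lists described here with at least 5 of them, cell type markers left out, with the median as a red bar and members with an unadjusted p under 0.05 in blue. The medians run from −0.14 (heat shock chaperones) to 0.08 (cell cycle), and no member of a list drawn passed an adjusted p of 0.05.

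Best1 was nearest to the threshold of all features and was singled out after its values had been seen. Best1 encodes bestrophin 1, a calcium-activated anion channel. It had 28.5, 23.1 and 27.4 in F1 and 89.1, 70.6 and 135 in F3, so that the lowest F3 sample had more than 2 times the highest F1 sample. The LFC was 1.89 (SE 0.271, interval 1.31 to 2.48), a ratio of 3.72, with an adjusted p of 0.0828 in edgeR. DESeq2 gave an adjusted p of 2.93e-05, and edgeR gave 0.0355 with only the 6 samples and 0.0412 without F2 sample j. Over 24 alternatives its adjusted p ranged from 2.93e-05 to 0.373, the latter without F1 sample k, and it passed in 7. In the AL samples it had 11.96, 12.04 and 14.44, and in the F2 samples 16.04, 14.86 and 25.06. In the RefSeq annotation (assembly GRCr8, not the build of the files) the neighbour of Best1 is Fth1, ferritin heavy chain, whose identifier was not paired with a symbol here, and reads shared by the neighbours were not examined.

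Other features with low p-values, also chosen after their values had been seen, were mostly lower in F3. Atp9a, a lipid flippase of endosomes, had 3622, 3516 and 3728 in F1 and 2897, 2970 and 3140 in F3 (LFC −0.27, SE 0.0656, adjusted p = 0.491 in edgeR and 0.0274 in DESeq2). Arhgap15, a Rac GTPase-activating protein typical of blood cells, had 6.10, 4.20 and 7.10 in F1 and 22.3, 11.9 and 18.9 in F3 (LFC 1.59, interval 0.62 to 2.56, adjusted p = 0.714 in edgeR), at a handful of reads per sample. Features without a symbol held the next lowest p-values after Best1. ENSRNOG00000015076 had 327, 241 and 223 in F1 and 145, 119 and 133 in F3, and its LFC of −0.99 (SE 0.165, interval −1.35 to −0.64) had an adjusted p of 0.115 in edgeR. ENSRNOG00000021796 had 9737, 11610 and 12304 in F1 and 6824, 6896 and 7867 in F3 (LFC −0.64, SE 0.108, adjusted p = 0.115 in edgeR). Among those higher in F3, ENSRNOG00000050071 had 258, 328 and 283 in F1 and 736, 574 and 957 in F3 (LFC 1.38, SE 0.279, adjusted p = 0.351 in edgeR). In each of these features, as in Best1, the groups did not overlap. At means of at least 100 normalized counts, 414 features had an unadjusted p under 0.05, 122 higher and 292 lower in F3, while at lower means 165 did, 103 higher and 62 lower.

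Features called against AL on only one of the days did not pass the direct test between the days. There were 816 features called in F3 and not in F1, and in the direct test 0 of them passed, with 180 at an unadjusted p under 0.05, 50 higher and 130 lower in F3. For the 100 called in F1 and not in F3, 0 passed and 12 had an unadjusted p under 0.05. For the 756 called on both days, 0 passed, 69 had an unadjusted p under 0.05, the median absolute LFC was 0.09, and the interval lay within −0.5 to 0.5 for 78.4%. These features were chosen with the same F1 and F3 samples as the direct test, and both comparisons share the AL samples, so that their numbers describe the features and test nothing further.

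Markers of other cells of the vessel wall and brain varied more among the F3 samples than among the F1 samples. Such a spread was not particular to F3, as the AL and F2 values below show. The 5 measured markers of pericytes and smooth muscle, of 13 listed, summed to 3094, 3119 and 3468 normalized counts in F1 and to 6600, 2535 and 4546 in F3, 7.66% to 19.4% of the count of Pecam1. In AL samples the sum was 6634, 3904 and 2760, and in F2 samples 6396, 3747 and 6974. Among the F1 and F3 samples it was highest in F3 sample i and lowest in F3 sample j. The median LFC of the 5 was 0.48, with all 5 above 0. The 4 astrocyte markers measured summed to 5213, 5954 and 6321 in F1 and to 8411, 4469 and 6258 in F3. Their sums were 10468, 6625 and 5061 in AL and 8951, 7460 and 9359 in F2. The 4 neuron markers summed to 51.5 to 61.9 in F1 and 52.7 to 121 in F3, and the 8 microglia and macrophage markers to 71.5 to 96.5 in F1 and 73.5 to 155 in F3, at most 0.456% of the count of Pecam1. The median LFC was 0.67 for the 4 neuron markers and 0.41 for the 8 of microglia and macrophages. It was 0.06 over all features with means under 100 normalized counts. At these low counts 0 of the neuron and microglia markers had an interval within −1 to 1. Median LFC was 0.32 for 4 fibroblast markers, 0.04 for the astrocyte markers and −0.24 for 2 red blood cell markers. None of these markers passed the test. An unadjusted p under 0.05 was seen for 1 each of the astrocyte (Aldoc) and neuron markers, beside 4.44% of all features. The part of other cells in the differences of single genes was not tested.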

How the data were processed

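The deposited values are raw counts per gene. To make them, the authors trimmed and quality-filtered the reads, mapped them with STAR to the rat genome (Ensembl 91), discarded reads with several matches and counted those on exons with HTSeq-count. The strand setting is not given in the sources used here, so overlapping genes may share reads.

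Counts were summed over 4 technical replicates. Features present (1 read or more) in every one of the 12 samples entered a quasi-likelihood model (edgeR 4.0.16 in R 4.3.3) with TMM normalization, 4 group means and robust prior degrees of freedom. Benjamini-Hochberg adjustment ran over all 13050 features (threshold 0.05). Normalized counts are raw counts rescaled to the mean TMM-corrected library size. SE and 95% intervals come from the same model. Log2 CPM used a prior count of 2. P-values rest on the spread between samples of the same group, estimated jointly over the 4 groups, AL and F2 included. The 3 samples of a group came from independent experiments. Whether samples of different groups shared an experiment is not stated in the sources used here. DESeq2 1.42.0 was an alternative. The test was tried on simulated data.

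Symbols came from the study's supplementary tables, 1 of them shortened. Named genes are those that the paper names, up to 4 members per described list by lowest p, and genes stated as chosen after their values were seen. The rule's 12 largest rises and falls among called genes found none. Members and lists were chosen with earlier results of these data known. Results for a few items are not reported here.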

Additional observations from a re-analysis of the deposited data

How the results depend on the processing

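The number of features called between F3 and F1 was 0 with edgeR under TMM, DESeq2's size factors, total counts or upper-quartile scaling, with filters of at least 10 reads or filterByExpr, with prior degrees of freedom not robust, without the technical replicate (d) whose labels conflict and at an adjusted p of at most 0.01. It was 24 with DESeq2's Wald test (3 higher, 21 lower), 9 with no filter on low counts and 9 with only the 6 samples (each 1 higher, 8 lower). DESeq2 gave no adjusted p for 1265 features. With each sample left out in turn, 0 to 6 features were called, 0 to 1 higher and 0 to 5 lower, with 1 without F2 sample i, 6 without F2 sample j, 1 without F3 sample j and 0 without any other. The number at an unadjusted p under 0.05 was 579, 986 with only the 6 samples, and 357 to 996 with samples left out (lowest for F1 sample k, highest for F2 sample j).

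With the sample letter as a replicate block, 1 feature was called, higher in F3 (Best1), and none lower, 0. An added fit of only the 6 samples with the replicate block called 47 (7 higher, 40 lower), Best1 and Acad9 among them, with 1201 at an unadjusted p under 0.05. The median SE was 0.101 with only the 6 samples and 0.0941 with the block added to them. Deviations of F1 and F3 samples of the same letter correlated at 0.0694 (i), 0.0252 (j) and 0.0302 (k). Such a correlation over all features cannot decide whether the letters pair the samples, and the main model used no pairing.

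Of 1487 values of the 62 named genes under alternatives, 1467 kept their direction and side of the threshold and 9 passed the threshold in the same direction, for Best1 7 times, for Acad9 in the added fit and for Atp9a with DESeq2. The other 11 changed sign with 1 sample left out, where the LFC ranged from −0.107 to 0.0428 for Slc38a3, −0.374 to 0.0291 for Slc1a1, −0.0836 to 0.0550 for Slco1c1, −0.00279 to 0.0526 for Abcb1a, −0.0162 to 0.163 for Abcg2 and −0.172 to 0.101 for Abcb9. The cause of these changes was not tested. With 3 samples a group, genes with low counts had wide intervals.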
